A study of Mus musculus with 6 samples.

Results

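RNA of the insulin-like growth factor (IGF) system was compared between muscle and epithelium sorted from the embryonic mouse trachea at embryonic day 13.5. 9 genes were examined of 23478 in the count table, namely every row whose symbol was Igf1, Igf1r, Igf2r or one of Igfbp2 to Igfbp7. All 9 passed the filter on low counts. The 6 libraries, 3 of muscle and 3 of epithelium, came from embryos that all carried floxed Bmp4 alleles (Bmp4 f/f) and the gamma SMA eGFP reporter, which marks cells that express gamma smooth muscle actin. The titles call all 6 libraries controls, and the labels name no Cre and no treatment. Sorting took GFP-positive cells as muscle and cells bound by an antibody to Epcam as epithelium. The labels do not say which libraries came from separate embryos or litters, so the p-values measure the spread between these libraries only.

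IGF1 and IGF2 are secreted peptides that promote growth and survival through the receptor tyrosine kinase encoded by Igf1r. The product of Igf2r, the cation-independent mannose 6-phosphate receptor, takes IGF2 to the lysosome for breakdown and sorts lysosomal enzymes. The IGF binding proteins hold the ligands in the extracellular space, where they can lengthen their life, keep them from the receptor or deliver them to it, and proteases that cut the binding proteins set the ligands free.

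Total counts ranged from 11847432 to 54848820 per library. The list of 10 smooth muscle markers summed to between 4137 and 17829 CPM (counts scaled to the size of the library) in muscle and to between 122 and 154 in epithelium, and the list of 10 epithelial markers to between 13.8 and 28.4 in muscle and between 3441 and 4617 in epithelium. All 10 of each list differed in the direction of the label. Endothelial, erythroid, immune, and neural and glial marker lists each summed to at most 94.2 CPM in any library. The globin genes Hba-a1, Hba-a2, Hbb-bt and Hbb-bs had no counts in any library, so the erythroid sum rests on the other markers of its list. Fibroblast markers summed to between 8225 and 11071 CPM in muscle and to 375, 2257 and 285 in epithelium replicates 1 to 3. Cartilage markers summed to between 1106 and 1908 CPM in muscle and between 292 and 698 in epithelium, and mesothelial markers to between 3.34 and 17.6 and between 313 and 501. Nearly all of the latter was Krt7, a keratin gene that epithelia also express, and the other 5 mesothelial markers summed to at most 17.7 CPM in any library. Olfactory and vomeronasal receptor genes, used as a gauge of background counts, had a mean of 0.54, 0.99 and 0.41 CPM per gene in muscle replicate 2, epithelium replicate 2 and epithelium replicate 3, and at most 0.031 in the other libraries. The identifier row of the file headers carries what reads as a day of month 9, day 3 in the pair of libraries numbered 2 and day 16 in the other 4. The headers do not say what happened on these days.

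3 of the 9 genes were higher in muscle (Igf1, Igf2r and Igfbp4) and 1 was higher in epithelium (Igfbp2), by the quasi-likelihood test of edgeR with p-values adjusted over 19375 genes and a threshold of 0.05. Of all tested genes 6.58% were higher in muscle and 4.11% higher in epithelium by the same rule (10.7% in either direction). In 6 of the 9 genes the 3 muscle libraries did not overlap the 3 epithelial ones, against 26.9% of all tested genes. The median log2 fold change of muscle over epithelium was 0.61 over the 9 genes and -0.10 over all tested genes. The 9 genes were chosen with earlier results of these data known, so these counts are descriptions. Scaling by library size only moved the median of all tested genes to -0.33 and the share of all calls that were higher in muscle from 61.5% to 42.0%. The 4 calls were made at that scaling too. In bulk libraries fewer cells of a type and less RNA per cell cannot be told apart.

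**Figure D1:**
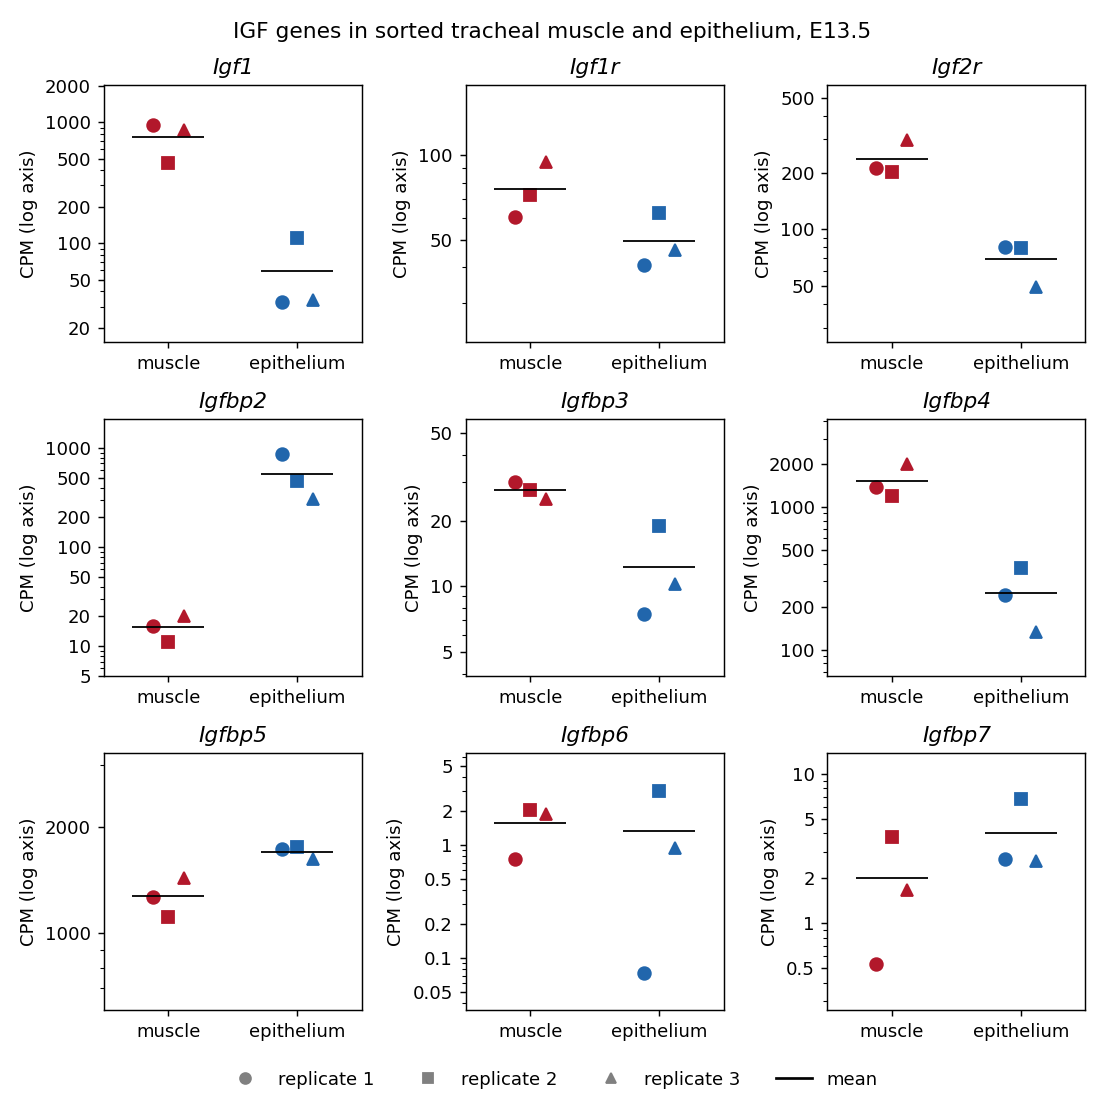
CPM (log axis) of the 9 genes in each library, with muscle in red and epithelium in blue, 1 symbol per replicate number and a line at the group mean. The groups are separate for Igf1, Igf2r, Igfbp2, Igfbp3, Igfbp4 and Igfbp5, and overlap for Igf1r, Igfbp6 and Igfbp7.

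The ligand gene Igf1 lies at chr10:87858265-87937042 on the plus strand (GRCm38, which is mm10, with the GENCODE M21 annotation, as for all positions here). It had 950.3, 455 and 855 CPM in the muscle libraries, in replicate order as in every such series here, against 32.4, 109.9 and 34.0 in the epithelial libraries. Every muscle library lay above every epithelial one, muscle replicate 2 being the lowest of its group and epithelium replicate 2 the highest. The means were 754 ± 263 CPM (SD, n = 3) and 58.8 ± 44.3, and the fit gave a log2 ratio of 3.68 ± 0.55 (SE, adjusted p = 0.0035, edgeR), a 12.8-fold difference. Smooth muscle markers were also lowest in muscle replicate 2, at 4137 CPM against 16896 and 17829 in the other muscle libraries, and their part in the result was not tested. Leaving muscle replicate 2 out gave 3.96 (adjusted p = 0.0024). Without epithelium replicate 2 the value was 4.44 (adjusted p = 0.00021), and the call was made in all 17 alternative fits. Among the 4 libraries of day 16 it was 4.69 (adjusted p = 0.00016), and the single pair of day 3 had a log2 ratio of 2.05, with no test. Macrophages are a known source of Igf1 in many tissues. The 10 immune markers summed to 3.34, 59.5 and 25.7 CPM in the muscle libraries, and 4 of them had no counts in muscle replicate 1, among them the macrophage genes C1qa, C1qb and C1qc. The part of macrophage RNA in the level of Igf1 was not tested.

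Igf2, the ligand gene most active in the embryo and no member of the 9, had 1817, 2346 and 2623 CPM in the muscle libraries and 932, 873 and 808 in the epithelial ones. It was abundant in both populations and its groups did not overlap. Muscle exceeded epithelium by 1.38 ± 0.25 on the log2 scale (SE, adjusted p = 0.0079, edgeR), and without epithelium replicate 3 the call was lost (1.21, adjusted p = 0.077). Levels of different genes were set side by side as CPM per kilobase of the union of a gene's exons. On that scale Igf2 stood at 395 ± 71.6 in the muscle libraries (SD, n = 3) and 152 ± 10.9 in the epithelial ones, and Igf1 at 76.1 ± 26.5 and 5.94 ± 4.47.

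The signalling receptor gene Igf1r lies at chr7:67952827-68233668 on the plus strand. It had 60.5, 72.2 and 94.6 CPM in muscle and 40.7, 62.2 and 46.0 in epithelium. The groups overlapped, since epithelium replicate 2 lay above muscle replicate 1. The fitted difference was 0.61 ± 0.27 on the log2 scale (SE, adjusted p = 0.23, edgeR), and none of the 17 alternative fits gave a call (adjusted p from 0.11 to 0.70). The lack of a call does not show equal levels. In counts simulated for this comparison over 19375 genes, 17.6% of 68 genes changed by 1 on the log2 scale were recovered. That change is larger than the one fitted for Igf1r. Fewer genes were changed in the simulation than were called in the data, which makes its adjusted p stricter. The share is thus not the rate of detection for Igf1r. Insr, the insulin receptor gene, whose product can pair with that of Igf1r, averaged 107 ± 28.9 CPM over the muscle libraries (SD, n = 3) and 74.3 ± 14.8 over the epithelial ones (log2 fold change 0.53 ± 0.28 SE, adjusted p = 0.36, edgeR). It passed in 1 of the 17 alternative fits, the one with the header date as a term (adjusted p = 0.043).

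Igf2r, the gene of the clearance receptor, lies at chr17:12682406-12769664 on the minus strand. It had 211, 201 and 297 CPM in muscle and 80.6, 79.3 and 49.4 in epithelium. All muscle libraries lay above all epithelial ones. The fit put muscle above epithelium by 1.76 ± 0.29 on the log2 scale (SE, adjusted p = 0.0052, edgeR), or 3.39-fold, and the call was made in all 17 alternative fits (1.44 to 1.90). Among the libraries of day 16 it was 1.89 (adjusted p = 0.011), and the pair of day 3 had a log2 ratio of 1.34. Per kilobase, Igf2r stood at 25.4 ± 5.64 (SD, n = 3) in muscle and 7.49 ± 1.90 in epithelium, against 4.51 ± 1.03 and 2.96 ± 0.67 for Igf1r, so the transcript of the clearance receptor was the more abundant of the pair in both populations.

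Airn, the non-coding RNA whose transcription keeps the paternal Igf2r allele silent in most mouse tissues, starts within Igf2r on the opposite strand and spans chr17:12741311-12860136. Airn had 29.9, 29.8 and 38.5 CPM in muscle and 8.87, 15.1 and 8.23 in epithelium, again with no overlap. The fitted difference was 1.61 ± 0.31 on the log2 scale (SE, adjusted p = 0.010, edgeR), near that of Igf2r, and it lost its call without epithelium replicate 3 (adjusted p = 0.060) and with library size only. The libraries keep no strand in standard use of the kit, so intronic reads of the pair cannot be told apart. The exons of the pair share 0 bases in the annotation used here.

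**Figure D2:**
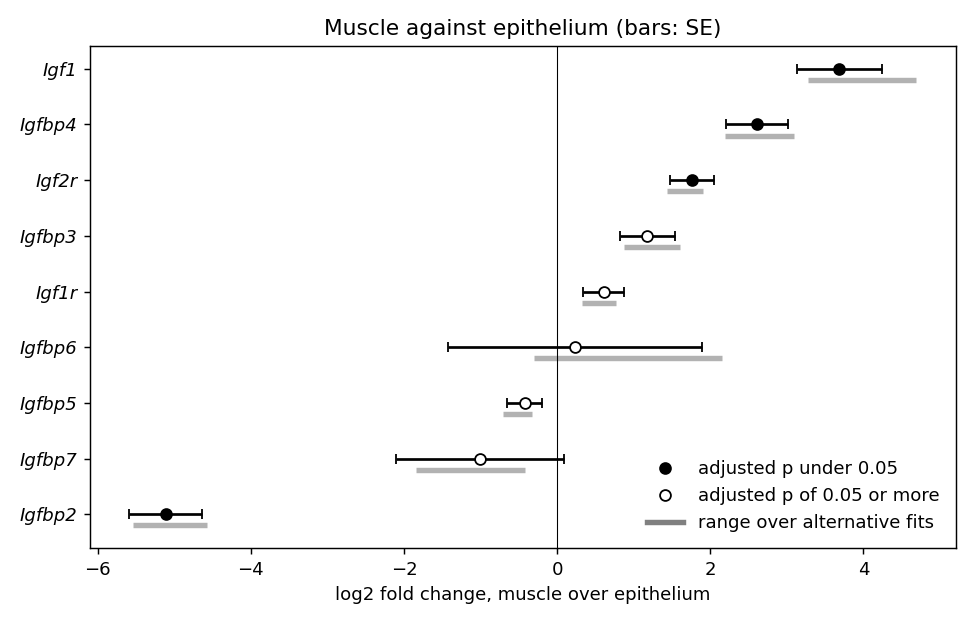
Log2 fold change of muscle over epithelium for the 9 genes (points, with SE bars; filled where the adjusted p is under 0.05) and its range over the alternative fits (grey). Igf1, Igfbp4 and Igf2r lie to the right of 0 and Igfbp2 far to the left in every fit; the range of Igfbp6 crosses 0.

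Among the binding proteins, Igfbp2 and Igfbp4 differed strongly and in opposite directions. Igfbp2 lies at chr1:72824503-72852474 on the plus strand. It had 16.2, 11.1 and 20.2 CPM in muscle and 878, 461 and 307 in epithelium, so the lowest epithelial library stood far above the highest muscle library. The fitted log2 ratio of muscle over epithelium was -5.11 ± 0.47 (SE, adjusted p = 0.00045, edgeR), a 34.6-fold higher level in epithelium, and the call was made in all 17 alternative fits (-5.54 to -4.58). The libraries of day 16 gave -5.09 (adjusted p = 0.0033), and the pair of day 3 a log2 ratio of -5.37. The epithelial libraries differed among themselves by more than the muscle libraries did, with means of 549 ± 295 CPM (SD, n = 3) and 15.8 ± 4.53.

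Igfbp4 lies at chr11:99041244-99054392 on the plus strand. It had 1370.5, 1195 and 1997 CPM in muscle and 240.5, 373 and 134 in epithelium. Each muscle library stood above each epithelial one. The fitted log2 ratio was 2.61 ± 0.41 (SE, adjusted p = 0.0040, edgeR), a 6.11-fold difference, and it was called in all 17 alternative fits (2.19 to 3.10). The libraries of day 16 gave 3.10 (adjusted p = 0.0035) and the pair of day 3 a log2 ratio of 1.68.

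The 250 bases upstream of the RefSeq start (GRCm38.p6, plus strand in both) are shown for these 2 genes because they are the binding proteins that were called, and in opposite directions. Igfbp2 has another RefSeq start further downstream, which is not shown. Neither window meets an annotated exon. Capitals mark matches to the GC box GGGCGG in Igfbp2, at chr1:72824230-72824479, and to the TATA box TATAAA in Igfbp4, at chr11:99040994-99041243.
Igfbp2: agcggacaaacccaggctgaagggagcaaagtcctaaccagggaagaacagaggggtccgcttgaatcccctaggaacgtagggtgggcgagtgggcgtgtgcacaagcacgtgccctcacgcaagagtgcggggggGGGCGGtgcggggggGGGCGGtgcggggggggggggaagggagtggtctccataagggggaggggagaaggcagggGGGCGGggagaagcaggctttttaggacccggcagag
Igfbp4: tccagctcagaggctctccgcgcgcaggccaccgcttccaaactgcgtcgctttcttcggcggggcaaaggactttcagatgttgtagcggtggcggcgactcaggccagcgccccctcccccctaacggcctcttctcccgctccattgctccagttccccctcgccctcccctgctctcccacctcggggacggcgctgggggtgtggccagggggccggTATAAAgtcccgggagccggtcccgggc
Both strands were searched for these motifs and for the E box CANNTG, the TCF/LEF motif CTTTGA, the forkhead motif TGTTTA and the CArG box, which serum response factor binds in smooth muscle genes. The Igfbp2 window held 3 GC boxes, which 32.9% of 27018 promoter windows of the same length hold at least once, and no TATA box. The Igfbp4 window held 1 TATA box, which 13.0% of windows hold, beginning at position -28, and no GC box. Each held 1 E box (in 66.1% of windows), which is not capitalised, and no letters matching the CArG box (1.40%), the TCF/LEF motif (14.0%) or the forkhead motif (12.0%). GC content was 67.2% for Igfbp2 and 69.2% for Igfbp4, against a median of 52% over all windows. These are matches of letters and say nothing of binding.

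Igfbp5 is the neighbour of Igfbp2 and faces it on the minus strand, at chr1:72857932-72874884. It had 1266, 1113 and 1441 CPM in muscle and 1733, 1766 and 1628 in epithelium. All 3 epithelial libraries lay above the muscle libraries, by a small margin next to that of Igfbp2. The fitted log2 ratio of -0.42 ± 0.23 (SE) did not pass the threshold (adjusted p = 0.36, edgeR). It passed in 2 of the 17 alternative fits, with library size only (-0.70, adjusted p = 0.025) and with DESeq2 (-0.54, adjusted p = 0.00038). The neighbouring pair thus had fitted ratios of 34.6 and 1.34 of epithelium over muscle, a difference between the genes that was not tested.

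Igfbp3, whose product is the main carrier of IGFs in the blood of adults, lies at chr11:7206086-7213923 on the minus strand. It had 30.1, 27.5 and 25.1 CPM in muscle and 7.49, 18.9 and 10.3 in epithelium. No epithelial library reached the lowest muscle library, and the spread was wider in epithelium. The log2 fold change of 1.18 ± 0.36 (SE) missed the threshold (adjusted p = 0.072, edgeR). Without epithelium replicate 2 it was 1.60 (adjusted p = 0.0085). Among the libraries of day 16, 2 per group, it was 1.56 (adjusted p = 0.023), while the single pair of day 3 had a log2 ratio of 0.54. The fits with limma-voom, with the header date as a term and with background counts as a covariate called it as well, 5 of 17 alternatives in all.

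Igfbp6 and Igfbp7 had the lowest levels of the 9 genes. Igfbp6 (chr15:102144362-102149511, plus strand) had 0.76, 2.05 and 1.90 CPM in muscle and 0.07, 3.01 and 0.94 in epithelium, from 4 to 75 counts. The groups overlapped, and the fitted log2 fold change of 0.23 ± 1.66 (SE, adjusted p = 0.98, edgeR) changed sign with library size only and without epithelium replicate 1 or 3. Of 1456 olfactory and vomeronasal receptor genes, 0.41%, 4.74% and 0.21% stood at or above its level in muscle replicates 1, 2 and 3, and 1.51%, 7.42% and 12.2% in the epithelial libraries. Igfbp7 (chr5:77349240-77408041, minus strand) encodes a related secreted protein of low IGF affinity that is a known product of endothelium. It had 0.53, 3.79 and 1.67 CPM in muscle and 2.68, 6.75 and 2.63 in epithelium, and its groups overlapped too (log2 fold change -1.01 ± 1.10 SE, adjusted p = 0.80, edgeR). At most 0.69% of the receptor genes stood at or above Igfbp7 in any library. 7.03% of its exon bases lie under exons of Polr2b on the opposite strand, and without strand the counts of the pair cannot be told apart there.

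Per kilobase, the binding protein transcripts had a different order in each population. In muscle Igfbp4 came first at 344 ± 95.5 CPM per kilobase (SD, n = 3), then Igfbp5 at 212 ± 27.3. Igfbp3 (8.80 ± 0.81) and Igfbp2 (8.57 ± 2.45) followed and did not differ beyond their spread, and the same held for Igfbp7 (1.65 ± 1.37) and Igfbp6 (1.41 ± 0.63). In epithelium Igfbp2 (297 ± 159.8) and Igfbp5 (284 ± 12.0) did not differ beyond their spread. Igfbp4 (56.4 ± 27.1) came next, and Igfbp3 (3.90 ± 1.90), Igfbp7 (3.32 ± 1.96) and Igfbp6 (1.21 ± 1.36) stood lowest with overlapping spreads.

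As shares of the summed level of the 6 binding protein genes, Igfbp4 took 57.4%, 56.9% and 63.3% in the muscle libraries and 6.62%, 13.1% and 6.39% in the epithelial ones. Igfbp2 took 1.62%, 1.27% and 1.53% in muscle and 57.8%, 38.9% and 35.1% in epithelium. Igfbp5 took 37.2% ± 3.11 (SD, n = 3) in muscle and 46.0% ± 11.1 in epithelium, which overlapped. The summed level was 577 ± 123 CPM per kilobase in muscle and 646 ± 174 in epithelium, a difference within the spread. Single libraries ranged from 474 (epithelium replicate 3) to 823 (epithelium replicate 1). Whether the totals are alike was not tested, and they rest on the scaling of the libraries. The make-up differed, with mostly Igfbp4 and Igfbp5 in muscle and mostly Igfbp2 and Igfbp5 in epithelium. The authors' annotation is not given in the sources used here, so these lengths may differ from those their counting used.

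**Figure D3:**
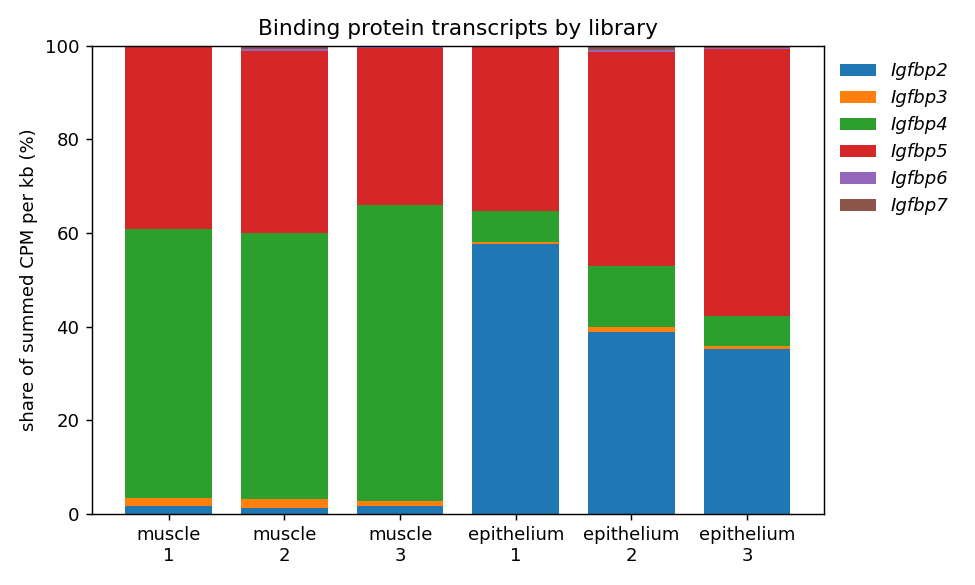
Share of each of the 6 binding protein genes in their summed CPM per kilobase (percent), 1 bar per library. Igfbp4 (green) makes up 56.9% to 63.3% of the muscle bars, Igfbp2 (blue) 35.1% to 57.8% of the epithelial bars, and Igfbp5 (red) a large share of all 6.

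Epithelium replicate 2 stood apart among the epithelial libraries for several genes that were higher in muscle. Relative to the muscle mean, Igf1 was at 14.6% in that library and at 4.30% and 4.51% in epithelium replicates 1 and 3. Igfbp4 was at 24.5% there and at 15.8% and 8.80% in the others, and Igfbp3 at 68.6% against 27.2% and 37.2%. Igf2r did not share the pattern, with 34.1%, 33.5% and 20.9% in epithelium replicates 1 to 3. The summed fibroblast markers were at 23.0% in epithelium replicate 2 and at 3.82% and 2.90% in the others, and all 11 markers were highest there among the epithelial libraries. The summed smooth muscle markers were at 0.978%, 1.19% and 0.945%. No fibroblast marker was at 0 in any library. Endothelial and immune markers were highest there too among epithelial libraries, at 77.9 CPM against 14.2 and 34.7 and at 49.8 against 4.42 and 24.6. Cartilage (698 against 483 and 292), neural and glial (94.2 against 38.0 and 49.2) and erythroid markers (26.3 against 7.10 and 23.2) were too. That library also had the fewest total counts of its group and the highest background (0.99 CPM per receptor gene against 0.0051 and 0.41). It was the only epithelial library of day 3. Within a single library these traits cannot be told apart. The part of RNA from these cell types in the values of Igf1, Igfbp3 and Igfbp4 was not tested. Without that library the log2 fold changes of Igf1 and Igfbp4 were 4.44 and 2.94. Epithelium replicate 2 was the highest of its group for both genes, so leaving it out raises these ratios by itself. The change therefore says nothing of the source of that RNA.

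**Figure D4:**
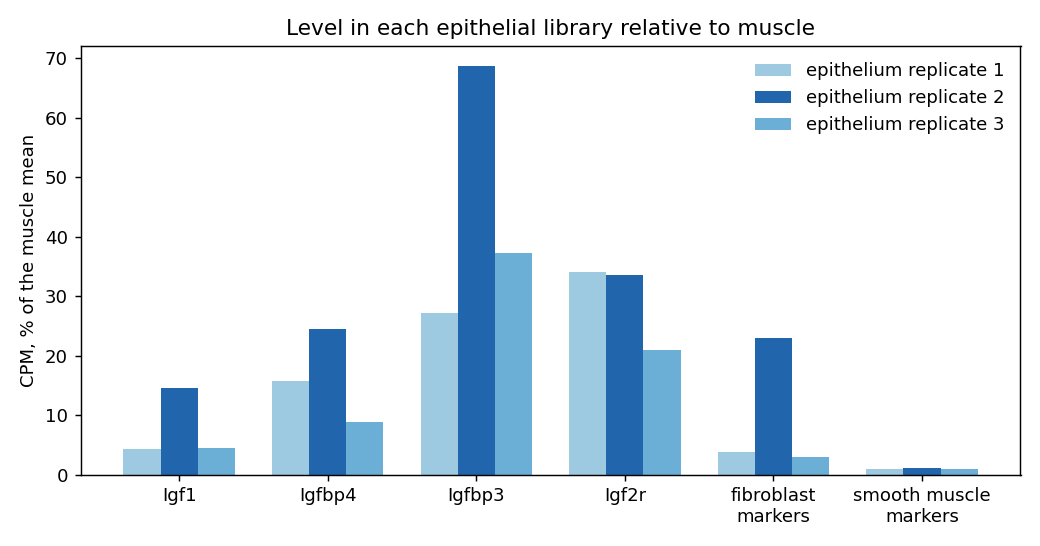
Level in each epithelial library as a percent of the muscle mean, for 4 genes and for the summed fibroblast and smooth muscle markers. Epithelium replicate 2 (dark bars) is highest for Igf1, Igfbp4, Igfbp3 and the fibroblast markers but not for Igf2r; smooth muscle markers are at 1.19% or less in all 3.

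86 other genes of the pathway in 7 lists were looked up, and 85 were tested. 8 were higher in muscle (9.41%, against 6.58% of all tested genes) and 2 in epithelium (2.35%, against 4.11%), and their median log2 fold change was 0.16. In muscle the counts fell to 4 without muscle replicate 3 and to 2 without epithelium replicate 3, and in epithelium to 1 without muscle replicate 3, epithelium replicate 2 or epithelium replicate 3. 13 were higher in muscle and 4 in epithelium among the libraries of day 16. Calls rose over all genes there too, to 1776 and 1152 of 16634 tested genes, from 1274 and 797 of 19375.

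Of 19 genes for receptor adaptors and their regulators, 3 were higher in muscle (15.8%, against 6.58% of all tested genes). None was higher in epithelium, against 4.11% of all tested genes. An unadjusted p under 0.05 was found for 5 of the 19, and for 21.7% of all tested genes. Cav1, which encodes the main protein of caveolae, had 434, 284 and 518 CPM in muscle and 10.1, 28.7 and 17.5 in epithelium (log2 fold change 4.47 ± 0.45 SE, adjusted p = 0.00062, edgeR). Socs3, a feedback inhibitor of cytokine signalling that also acts on insulin receptor substrates, was higher as well (2.62 ± 0.43, adjusted p = 0.0051). So was Shc1, an adaptor that links receptors to Ras (1.45 ± 0.30, adjusted p = 0.016), whose call was lost without muscle replicate 1 or 3 or epithelium replicate 3. Irs1 (0.44 ± 0.24, adjusted p = 0.35) and Irs2 (-0.21 ± 0.28, adjusted p = 0.87), the main docking proteins of the receptor, did not pass. Grb10, an imprinted gene whose product restrains insulin and IGF receptors, was abundant in both, at 1808 ± 177 CPM (SD, n = 3) and 1595 ± 518. Its difference of 0.18 ± 0.29 (SE, adjusted p = 0.89, edgeR) turned sign in 4 of 17 alternative fits. These were library size only, the libraries of day 16, and the fits without epithelium replicate 2 or 3.

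Of 8 genes for proteases of binding proteins and their inhibitors, 1 was higher in muscle (12.5%, against 6.58% of all tested genes). None was higher in epithelium (against 4.11%). The gene called was Ctsd, which encodes the lysosomal protease cathepsin D (1.12 ± 0.26, adjusted p = 0.025, edgeR). It lost its call without muscle replicate 1 or 3 and without epithelium replicate 1 or 3. Pappa, whose product cuts the proteins of Igfbp4 and Igfbp5, had 23.5, 41.2 and 38.5 CPM in muscle and 1.52, 20.7 and 6.01 in epithelium. Its groups did not overlap, but the log2 fold change of 1.89 ± 0.76 (SE) did not pass (adjusted p = 0.18, edgeR). It was called in 4 of 17 alternative fits. These were limma-voom, the libraries of day 16, the fit without epithelium replicate 2 and that with background counts as a covariate. Epithelium replicate 2 had the most Pappa, Igfbp4, Igfbp3 and fibroblast marker RNA of its group, so leaving it out raises the ratio by itself. The part of fibroblast RNA in the values of Pappa was not tested. Stc2, whose product inhibits that protease, did not pass (-1.42 ± 0.84, adjusted p = 0.42).

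Of 9 further binding proteins, 1 was higher in muscle (11.1%, against 6.58% of all tested genes) and none in epithelium (against 4.11%). The gene called was Ctgf, a matricellular protein gene with a binding protein domain (1.17 ± 0.28, adjusted p = 0.027, edgeR). Its call was lost without muscle replicate 3 or epithelium replicate 1 or 3, and with either of the other scalings of edgeR. Htra1, a secreted protease gene (0.93 ± 0.73, adjusted p = 0.62), did not pass. Igfbp1 and Igfbpl1 had at most 2.21 and 9.22 CPM in any library and did not pass (adjusted p = 0.98 and 0.93). Of the olfactory and vomeronasal receptor genes, 0.069%, 59.1% and 100% stood at or above Igfbp1 in the muscle libraries and 100%, 13.5% and 29.8% in the epithelial ones. Igfbpl1 had 0.076, 7.89 and 0.96 CPM in muscle and 0.074, 9.22 and 4.73 in epithelium. It was thus highest in muscle replicate 2 and epithelium replicates 2 and 3, the libraries with the most background counts. None of the 3 genes of IGF2 mRNA binding proteins, which bind and stabilise the mRNA of Igf2 and others, passed in edgeR or had an unadjusted p under 0.05, and none passed in DESeq2. Igf2bp3 was called with library size only, higher in epithelium (-0.60, adjusted p = 0.043). Igf2bp1, Igf2bp2 and Igf2bp3 averaged 144 ± 38.1, 232 ± 53.0 and 151 ± 20.9 CPM over the muscle libraries (SD, n = 3) and 198.5 ± 88.8, 166 ± 54.9 and 194 ± 52.1 in epithelium.

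Downstream of the receptor, 1 of 18 genes of PI3 kinase and AKT signalling was higher in epithelium and none in muscle, and 5 had an unadjusted p under 0.05. Of all tested genes 4.11%, 6.58% and 21.7% met these rules. That gene, Pik3cb, encodes a catalytic subunit of PI3 kinase. It had 1.75, 6.84 and 3.92 CPM in muscle and 15.5, 23.5 and 13.0 in epithelium (-2.06 ± 0.53 SE, adjusted p = 0.039, edgeR), and was called in 10 of 17 alternative fits. Leaving out 1 library ended its call in 4 of 6 cases, those without muscle replicate 1 or 3 and without epithelium replicate 2 or 3. Of 22 genes of FoxO factors and mTORC1 signalling, 2 were higher in muscle and 1 in epithelium. 2 of the 3 sestrin genes, whose products restrain mTORC1 under stress, passed, in opposite directions. Sesn1 had 62.7, 40.8 and 58.9 CPM in muscle and 20.2, 23.9 and 14.2 in epithelium (1.48 ± 0.29, adjusted p = 0.011), and Sesn2 had 18.7, 16.6 and 19.7 and 51.4, 53.8 and 46.6 (-1.46 ± 0.22, adjusted p = 0.0034). Sesn1 lost its call without epithelium replicate 3 (adjusted p = 0.057), while Sesn2 was called in all 17 alternative fits. Sesn3, named after its values were seen, had -1.19 ± 0.36 (SE) and did not pass (adjusted p = 0.072, edgeR). Eif4ebp1, which encodes a repressor of translation that mTORC1 inactivates, was higher in muscle (1.28 ± 0.30, adjusted p = 0.024), and its call was lost without muscle replicate 1 or 3 or epithelium replicate 3.

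**Figure D5:**
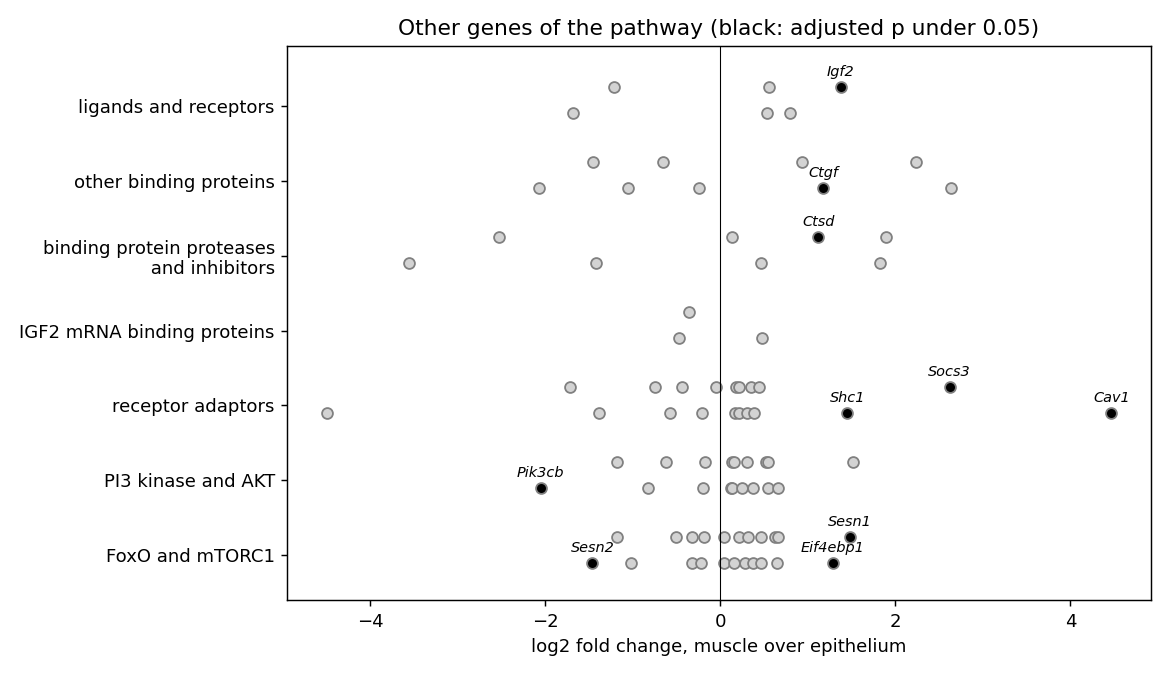
Log2 fold change of muscle over epithelium for the 85 tested pathway genes, 1 point per gene, in rows by role. The 10 named black points have an adjusted p under 0.05, and 8 of them lie to the right of 0.

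Genes with a level pattern most like those of the extremes of the 9 were listed as a description, by Pearson's r of log2 CPM over 6 libraries among 9364 genes. The libraries fall into 2 groups, which sets most of such a correlation. For Igf1 they were Tbx5, Ddr2 and Slc1a4 (r = 0.999, 0.998 and 0.998), and for Igfbp2 they included Plch2 and Ssx2ip (r = 0.998 and 0.996). Pearson's r does not measure the size of a difference. Slc1a4 averaged 94.2 ± 11.3 CPM in muscle (SD, n = 3) and 42.6 ± 7.28 in epithelium, a smaller difference than that of Igf1. Tbx5, a transcription factor gene of lung and trachea mesenchyme, had 512, 161 and 436 CPM in muscle and 8.53, 34.0 and 8.15 in epithelium, low in muscle replicate 2 and high in epithelium replicate 2 as Igf1 was.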

How the data were processed

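The authors deposited raw counts as whole numbers, by gene symbol and library, under 4 header rows. Per the submitters' processing notes the build was mm10 and Trim Galore, Bowtie2, Cufflinks and DESeq were used. Their roles and versions, the annotation and any filter are not given in the sources used here. Per the labels' protocols, RNA was extracted with Trizol and libraries were made with a template-switching kit for low input (SMART-Seq) and Nextera XT, which carry no molecular identifiers, so counts include PCR copies and a number of counts gives counting error only.

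The deposited counts went unchanged into edgeR 4.0.16 (R 4.3.3), with filterByExpr by group, TMM scaling, a robust quasi-likelihood fit without covariates, a two-sided test and Benjamini-Hochberg adjustment over 19375 genes, threshold 0.05. Positive log2 values are higher in muscle, and the SE is the log2 value divided by the root of F. CPM uses TMM-scaled library sizes. For 1 gene, an exact permutation test of 3 against 3 libraries reaches 0.10 at the lowest. The fit was tested on simulated data. Libraries were grouped by title. Exon lengths and positions are from GENCODE M21, promoters from RefSeq.

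The members, gene lists and tests were chosen with earlier results of these data known. Named pathway genes were 13 chosen by role, plus up to 3 per list and direction with the largest change past the threshold with average log2 CPM of 2 or more. Genes of like pattern were the 3 of highest correlation with average log2 CPM of 4 or more. 1 of these is not reported here. 6 list genes were matched through RefSeq synonyms. Alternatives were other scalings, filters and tests (DESeq2 1.42.0, limma-voom of limma 3.58.1), a replicate block, the header date as a term or its later value alone, and each library left out. A covariate for background counts, exon lengths of the longest transcript and shares without each library were added after the data were seen.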

Additional observations from a re-analysis of the deposited data

How the results depend on the processing

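The 4 calls among the 9 genes kept their direction and side of the threshold in all 17 alternative fits. Of 152 values of the 9 genes under alternatives, 142 kept direction and side, 7 passed the threshold anew (Igfbp3 and Igfbp5) and 3 changed sign (Igfbp6). 2 of the 9 genes were higher in epithelium with library size only and with DESeq2. Over all 19375 tested genes those higher in epithelium rose too, from 797 to 1439 and 1582. Igfbp6 had a log2 fold change of -0.11 with library size only and from -0.31 to 1.68 without each library in turn. Sign changes elsewhere were in Grb10 (-0.048 with library size only, -0.014 within the later header date, -0.076 to 0.48 without a library), Irs2 (0.12 within the later date), Igfbp1 (0.44 with limma-voom, 0.59 with the header date as a term, 1.92 within the later date, 2.73 with the background covariate, -3.16 to 1.55 without a library) and Igfbpl1 (0.68 with limma-voom, 0.63 with the covariate, -3.13 to 0.43 without a library). The cause was not tested.

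Pathway genes higher in epithelium numbered 6 with library size only, 8 with DESeq2, 5 with limma-voom, 1 without the robust fit, 6 with the header date as a term, 4 within the later date and 5 with the covariate, and from 1 to 3 without a library. Those higher in muscle numbered 13 within the later date and from 2 to 11 without a library. Over all tested genes, those higher in muscle numbered 1949 with DESeq2, 2054 with the date as a term, 579 at an adjusted p under 0.01 and from 570 (without epithelium replicate 3) to 1655 without a library, with 809 without muscle replicate 1 and 716 without muscle replicate 3. Those higher in epithelium numbered 1439 with library size only, 1582 with DESeq2, 404 at an adjusted p under 0.01 and from 514 (without muscle replicate 1) to 918 without a library.

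Libraries with the same number share an identifier for numbers 1 and 2 but not for 3, so the numbers were not taken as pairs. Deviations from the group means correlated at 0.59, 0.73 and -0.57 over 19375 genes for numbers 1 to 3. Deviations within a group of 3 depend on each other, so these values do not test pairing. With the replicate block, the 9 genes gave 3 calls in muscle and 1 in epithelium, as without it, and the pathway lists 11 and 4. With the longest transcript in place of the union of exons, the mean share of Igfbp2 in muscle was 1.89% and that of Igfbp5 33.8%. Igfbp6 had only 4 counts in epithelium replicate 1, although that library had the most total counts (54848820).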
